A study of Homo sapiens with 6 samples.

Results

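The ATF4 programme was followed through 33 genes, given as a list of gene symbols that was drawn up with earlier results of these data known. The list holds ATF4 and 6 other transcription factors, 6 stress effectors and feedback genes, 6 serine and one-carbon enzymes, 5 other amino acid enzymes, and 8 tRNA synthetases with the tRNA export factor XPOT. All 33 were found among the 58302 gene entries of the deposited table, and all 33 were among the 15063 genes with enough counts to be tested. RNA was sequenced from Ker-CT, an established line of human keratinocytes that carries telomerase and CDK4 and so divides without limit. The siKMT2C group held 3 libraries of cells given siRNA against KMT2C, a histone H3 lysine methyltransferase, and the siNC group held 3 libraries of cells given control siRNA. Both groups carried the M5 cytokine mix (TNF-α, IL-17A, oncostatin M, IL-22 and IL-1α at 10 ng/ml each) for 24 h, so no value here is from unstimulated cells. The study asked what KMT2C depletion does to gene expression in this psoriasis-like cell model. The sources used here do not give the siRNA sequences, nor whether the replicates were separate cultures, and p-values measure the spread between these libraries only.

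ATF4 is a basic leucine zipper (bZIP) transcription factor that sits at the centre of the integrated stress response. When amino acids run short, unfolded proteins accumulate or other stresses act, kinases phosphorylate the initiation factor eIF2, which slows most translation while the ATF4 protein is made in larger amounts. ATF4 then switches on genes for amino acid synthesis, amino acid import and tRNA charging, together with DDIT3, TRIB3 and other genes that shape the later response. ATF4 is regulated mainly at translation, and its messenger RNA, which is what was counted here, is not a measure of its protein.

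ATF4 binds with C/EBP partners to a C/EBP-ATF response element, and the core letters TGATGNAA were searched on both strands of promoter windows running from 250 bases before to 50 bases after each annotated start (RefSeq, GRCh38.p14). The windows below are shown because they are the 10 members whose promoters hold those letters. Each is written 5′ to 3′ on the strand that carries the motif, with the motif in capitals.
ASNS: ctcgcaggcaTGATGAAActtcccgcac
MTHFD1L: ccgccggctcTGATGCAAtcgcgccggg
CEBPG: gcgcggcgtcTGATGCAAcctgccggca
ATF3: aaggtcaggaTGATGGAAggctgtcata
CHAC1: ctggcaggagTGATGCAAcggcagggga
AARS1: ctaacttggcTGATGCAActgcgagaaa
GARS1: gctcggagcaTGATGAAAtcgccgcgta
IARS1: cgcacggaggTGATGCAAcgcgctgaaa
MARS1: aatccctcgcTGATGCAAccggaaccgg
NARS1: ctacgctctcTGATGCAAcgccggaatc
The ASNS window lies at chr7:97872459-97872486 on the minus strand, with its motif beginning 68 bases before the annotated start of the gene for asparagine synthetase. The MTHFD1L window lies at chr6:150866347-150866374 on the plus strand, and that of CEBPG at chr19:33374061-33374088 on the plus strand. The tRNA synthetase windows lie at chr16:70289676-70289703 (AARS1, plus strand), chr7:30594835-30594862 (GARS1, minus strand), chr9:92293693-92293720 (IARS1, plus strand), chr12:57488054-57488081 (MARS1, minus strand) and chr18:57621805-57621832 (NARS1, minus strand). Those of ATF3 and CHAC1 lie at chr1:212565206-212565233 on the plus strand and chr15:40953252-40953279 on the minus strand.

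A promoter entry was matched for 28 of the 33 members, and 10 of these 28 (35.7%) held TGATGNAA in at least 1 window, against 294 of 10709 tested genes (2.75%). Of the 9 genes of tRNA charging and export, 5 held it. The element is known from genes of this kind, so the share is a description of the list and not independent evidence about it. The letters were not in the windows of CTH, PSAT1, DDIT3, SARS1 or TRIB3, and copies outside the windows were not searched for. The median log2 fold change, siKMT2C over siNC, was 0.14 in the 10 members with the letters (range -0.48 to 0.55) and 0.18 in the 18 without (range -0.35 to 0.91).

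The 6 libraries held 15921870 to 16414777 counts in siKMT2C and 14409277 to 17539519 in siNC. Keratinocyte markers summed to 19350 to 26330 CPM, which are counts scaled to library size, in siKMT2C and 19810 to 29510 CPM in siNC, led by KRT14, and of the 13, all tested, 3 had a positive log2 fold change and 0 were called. Fibroblast markers summed to 13.7 to 17.7 CPM in siKMT2C and 21.1 to 31.5 CPM in siNC. Melanocyte markers summed to 6.67 to 8.35 CPM in siKMT2C and 6.99 to 15.1 CPM in siNC, and immune cell markers to 13.0 to 14.5 CPM in siKMT2C and 9.67 to 14.5 CPM in siNC. Their part in the results was not tested. Lineage-defining genes of melanocytes (TYR, DCT, SOX10), immune cells (PTPRC, CD3E, CD207) and endothelium (PECAM1, CDH5) were at 0 in every library. In a bulk sample, fewer cells of a type and less RNA per cell cannot be told apart. The third library of each group lay beyond the other libraries of its group on both leading principal components, which carried 33.35% and 30.32% of the variance.

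KMT2C, the siRNA target, had 32.0, 30.8 and 27.3 CPM in siKMT2C and 87.9, 82.0 and 72.6 CPM in siNC. The groups did not overlap, and the log2 fold change was -1.43 (SE 0.14, adjusted p = 0.00786, edgeR quasi-likelihood test with Benjamini-Hochberg adjustment over all genes tested). The call was lost without siKMT2C replicate 1 (adjusted p = 0.0634), siKMT2C replicate 2 (0.0507) or siNC replicate 2 (0.0593), with values of -1.48, -1.45 and -1.42 on the log2 scale.

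Of the 33 genes, only CTH passed an adjusted p of 0.05, and it rose in siKMT2C. Without passing the test, log2 fold changes were positive in 4 of 6 serine and one-carbon enzymes and in 9 of 9 genes of tRNA charging and export, though NARS1 and XPOT turned under some settings. ATF4 messenger RNA and the stress effectors overlapped between the groups. Across all genes tested 1.5% were called, with 0.69% higher and 0.81% lower in siKMT2C. The median log2 fold change of the 33 was 0.16, beside -0.0025 over all genes tested. A positive log2 fold change was seen in 24 of 33 members (72.7%), against 49.7% of all genes tested. The siKMT2C libraries all lay above the siNC libraries in 9 members (27.3%), beside 11.8% of all genes tested, and all below in 1 member, ATF5, beside 12.3%. By DESeq2, 3 members passed, CTH, DDIT3 and PSAT1, all higher, beside 5.74% of all genes, and without the replicate 3 library of both groups 1 passed, CTH, beside 4.29%. At an unadjusted p under 0.05, 10 members were higher and 0 lower, beside 7.91% and 9.01% of all genes tested.

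**Figure D1:**
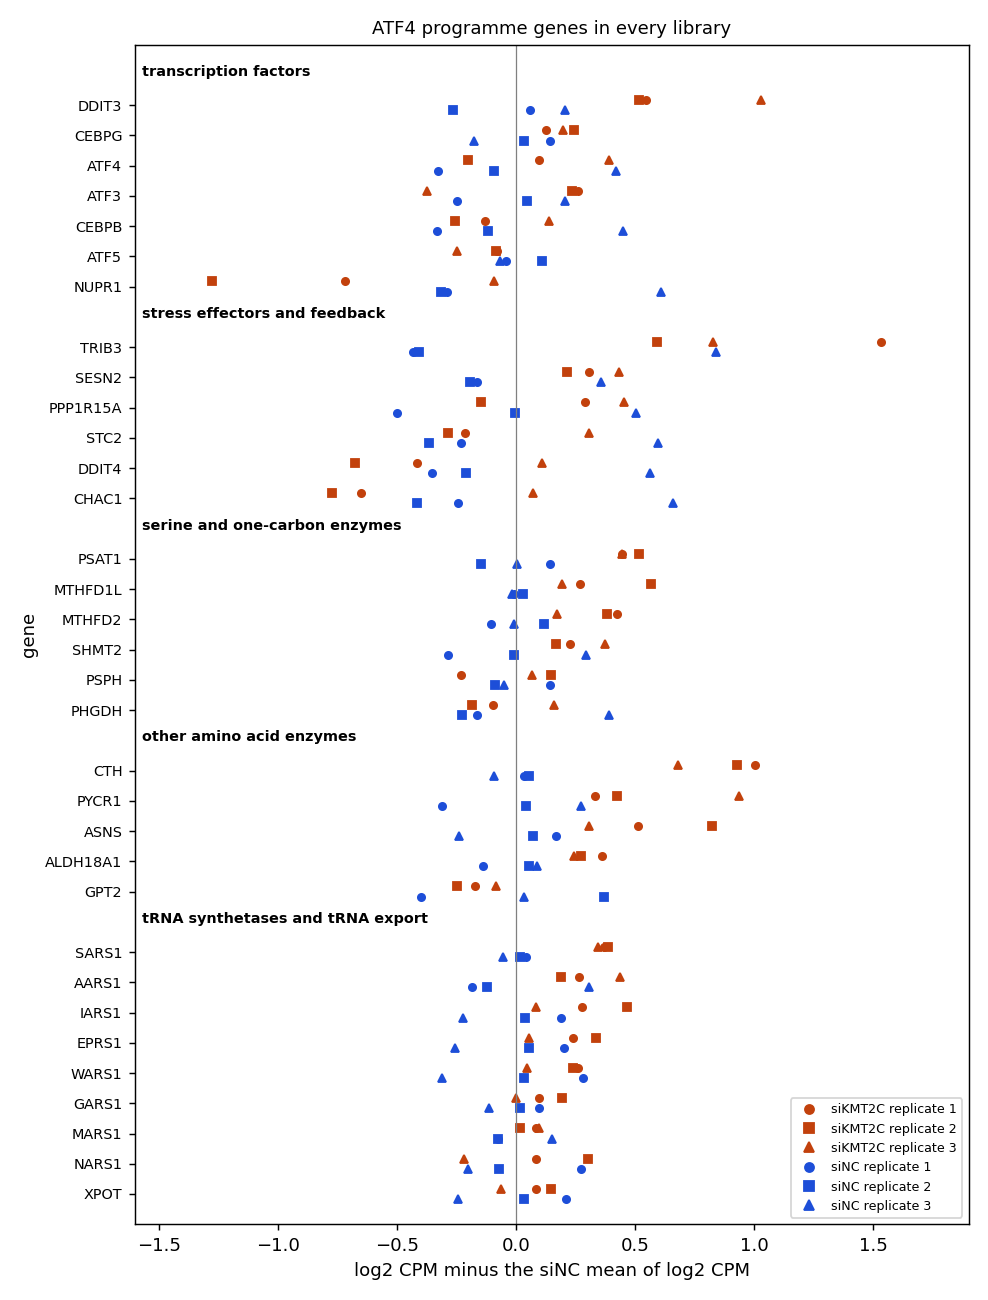
Each row is 1 of the 33 genes, grouped by role, and each point is 1 library, plotted as log2 CPM minus the siNC mean of log2 CPM for that gene (circles, squares and triangles are replicates 1, 2 and 3). In CTH, PSAT1 and SARS1 the siKMT2C points lie clear of the siNC points, while in CHAC1, DDIT4 and STC2 the triangles of both groups lie to the right of their own circles and squares.

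CTH encodes cystathionine gamma-lyase, which releases cysteine from cystathionine in the transsulfuration pathway. It lies on chromosome 1 at 70411218 to 70439851 (GENCODE 29, GRCh38). It had 19.4, 18.4 and 15.5 CPM in siKMT2C and 9.90, 10.0 and 9.07 CPM in siNC, with means of 17.7 ± 2.03 CPM in siKMT2C and 9.67 ± 0.525 CPM in siNC (SD, n = 3 libraries each). The groups did not overlap and the lowest siKMT2C library stood well above the highest siNC library. The fold was 1.84 (95% interval 1.42 to 2.38), the log2 fold change 0.88 (SE 0.16), and the adjusted p 0.0462 by edgeR's quasi-likelihood test. Leaving out siKMT2C replicate 1, 2 or 3 gave an adjusted p of 0.230, 0.169 or 0.0900, and leaving out siNC replicate 1 or 2 gave 0.105 or 0.175, each with the same direction. Without siNC replicate 3 it was 0.0454, and without the replicate 3 library of both groups 0.0311. Over all settings tried the log2 fold change of CTH lay between 0.81 and 0.97.

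The other amino acid enzymes had a median log2 fold change of 0.55, with 4 of 5 positive, beside 49.7% of all genes tested. In 4 of 5 the groups were apart and higher in siKMT2C, beside 11.8% of all genes tested. ASNS, which makes asparagine, had 245.2, 304.2 and 213.0 CPM in siKMT2C and 193.6, 180.8 and 145.7 CPM in siNC. Every siKMT2C library was above every siNC library, and the log2 fold change was 0.55 (SE 0.17, adjusted p = 0.162, edgeR). PYCR1, the mitochondrial enzyme of the last step of proline synthesis, had 54.4, 58.0 and 82.6 CPM in siKMT2C and 34.8, 44.4 and 52.2 CPM in siNC. Its groups were apart by a narrow margin, with a log2 fold change of 0.57 (SE 0.22, adjusted p = 0.231, edgeR). ALDH18A1, which starts proline synthesis from glutamate, had 106.6, 100.2 and 98.3 CPM in siKMT2C and 75.3, 86.0 and 88.2 CPM in siNC, and its log2 fold change was 0.29 (adjusted p = 0.290). GPT2, the mitochondrial alanine aminotransferase, overlapped between groups, with a log2 fold change of -0.20 (adjusted p = 0.671).

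Among the serine and one-carbon enzymes 0 of 6 passed and the median log2 fold change was 0.28. In 3 of 6 the groups were apart and higher in siKMT2C, beside 11.8% of all genes tested. PSAT1, the aminotransferase of the middle step from glycolysis to serine, had 418.0, 439.5 and 417.6 CPM in siKMT2C and 338.8, 277.3 and 308.2 CPM in siNC. The siKMT2C libraries were tightly grouped above the siNC libraries, at a log2 fold change of 0.46 (SE 0.12, adjusted p = 0.104, edgeR). The enzymes on either side of it in the pathway had values near 0. PHGDH, the entry step, had a log2 fold change of -0.06 (95% interval -0.51 to 0.38), and PSPH, the last step, had -0.0009 (95% interval -0.35 to 0.35). The 95% interval of PSAT1 was 0.19 to 0.74 and overlapped both of these, and the difference between the 3 genes was not tested. MTHFD2 and MTHFD1L act in the mitochondrial folate pathway, which turns carbon units from serine into formate. MTHFD2 had 306.1, 297.2 and 256.9 CPM in siKMT2C and 212.1, 247.4 and 226.8 CPM in siNC, with a log2 fold change of 0.33 (SE 0.13, adjusted p = 0.237). MTHFD1L had 74.3, 91.5 and 70.6 CPM in siKMT2C and 61.3, 62.9 and 60.9 CPM in siNC, with a log2 fold change of 0.35 (SE 0.14, adjusted p = 0.254). In both, the lowest siKMT2C library lay above the highest siNC library. SHMT2, which splits serine to glycine in mitochondria, overlapped between groups, with 225.1, 215.8 and 249.1 CPM in siKMT2C and 157.7, 191.3 and 235.5 CPM in siNC.

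All 9 genes of tRNA charging and export had a positive log2 fold change and 0 of 9 passed. Their values ran from 0.05 in XPOT to 0.37 in SARS1, with a median of 0.16. SARS1, which charges serine onto its tRNA, had 378.0, 382.1 and 371.0 CPM in siKMT2C and 300.5, 295.3 and 281.4 CPM in siNC. It was the only one of the 9 whose groups did not overlap (11.1%, beside 11.8% of all genes tested apart and higher). Its log2 fold change was 0.37 (SE 0.10, adjusted p = 0.130, edgeR). AARS1 (alanine) and IARS1 (isoleucine) had log2 fold changes of 0.28 and 0.27, and EPRS1 (glutamate and proline) had 0.20. WARS1, the tryptophan enzyme that is also induced by interferon gamma, had 0.16, and GARS1 (glycine), MARS1 (methionine) and NARS1 (asparagine) had 0.10, 0.06 and 0.06. The direction of NARS1 and XPOT turned under a correction for GC content and length, to -0.0044 in NARS1 and -0.0013 in XPOT.

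**Figure D2:**
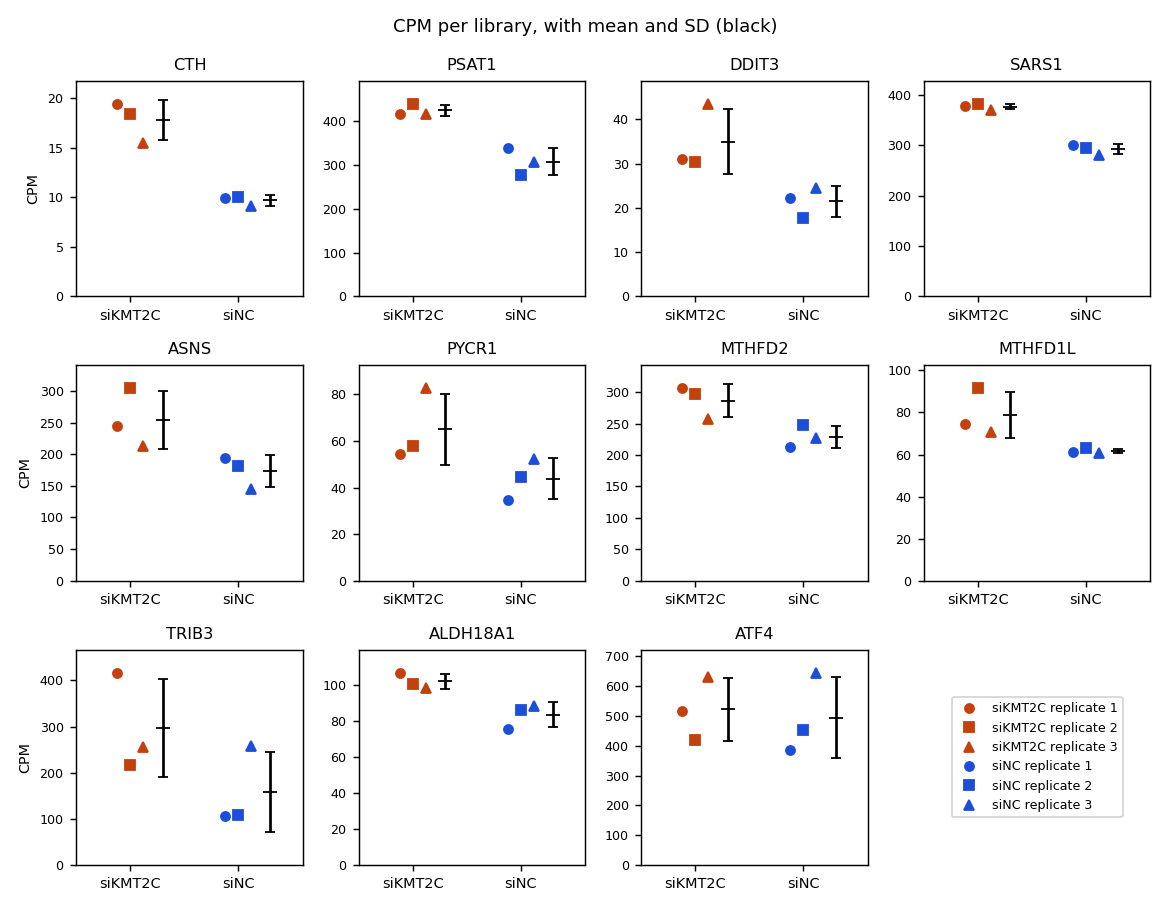
CPM per library for CTH, the 9 other genes with the smallest p among the 33, and ATF4, with siKMT2C left of siNC and the mean and SD in black (n = 3 libraries each, axes start at 0). The siKMT2C points lie above all siNC points in every panel except those of TRIB3 and ATF4.

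ATF4 lies on chromosome 22 at 39519695 to 39522685 (GENCODE 29, GRCh38). It had 515.3, 418.9 and 631.4 CPM in siKMT2C and 384.1, 451.4 and 645.4 CPM in siNC. The highest and the lowest of the 6 libraries were both siNC libraries, and the groups overlapped fully. The log2 fold change was 0.08 (SE 0.22, adjusted p = 0.899, edgeR), with a 95% interval on the fold of 0.740 to 1.51. Without siKMT2C replicate 3 it was -0.08 and without siNC replicate 1 it was -0.07, so the direction rested on single libraries. The processed pseudogene ATF4P3 held 2.56% as many counts as ATF4, and reads may be split between them.

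Of the other transcription factors, DDIT3, also called CHOP and known for its part in stress-induced cell death, had the largest positive value. It had 31.0, 30.4 and 43.4 CPM in siKMT2C and 22.1, 17.7 and 24.5 CPM in siNC. The groups did not overlap, and the log2 fold change was 0.70 (SE 0.20, adjusted p = 0.129, edgeR). The 3′ ends of DDIT3 and MARS1 overlap on opposite strands of chromosome 12, and MBD6 also overlaps DDIT3 on the opposite strand. MARS1 carried 19544 counts and MBD6 2914, against 2765 for DDIT3 over all libraries. Whether counting used strand was not given, so the level of DDIT3 is uncertain. NUPR1, a small stress-induced nuclear protein, had 12.7, 8.61 and 19.5 CPM in siKMT2C and 17.0, 16.8 and 31.8 CPM in siNC. It had the lowest log2 fold change of the 33, -0.68 (SE 0.35, adjusted p = 0.384), and its groups overlapped. NUPR1 was at -1.04 when siKMT2C replicate 3 was left out, at -0.44 when siKMT2C replicate 2 was, at -0.32 when siNC replicate 3 was, and at -0.67 when replicate 3 of both groups was. CEBPG, a bZIP partner of ATF4, had a log2 fold change of 0.19, ATF3 0.06 and CEBPB -0.11, and the groups overlapped in each. Without siNC replicate 3 CEBPB was at 0.14. ATF5 had 19.4, 19.4 and 17.3 CPM in siKMT2C and 19.97, 22.2 and 19.7 CPM in siNC, at a log2 fold change of -0.14 (adjusted p = 0.683). The ATF5 groups were apart by a margin smaller than the spread within either group, and the gene overlaps NUP62 on the opposite strand.

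The stress effectors and feedback genes spread in both directions, with 3 of 6 positive, 0 of 6 called and 0 of 6 apart. Of all genes tested, 11.8% were apart and higher and 12.3% apart and lower. TRIB3, a pseudokinase that binds ATF4 and DDIT3 and dampens their activity, had 416.9, 216.9 and 255.2 CPM in siKMT2C and 106.6, 108.7 and 257.9 CPM in siNC. It had the largest log2 fold change of the 33, 0.91 (SE 0.39, adjusted p = 0.287, edgeR), and also the largest SE. In siNC, replicate 3 stood above siKMT2C replicates 2 and 3, while the other siNC libraries lay below every siKMT2C library. Without siNC replicate 3 the log2 fold change of TRIB3 was 1.45 (adjusted p = 0.0625, edgeR), without siKMT2C replicate 1 it was 0.58 (0.642), and without replicate 3 of both groups it was 1.55 (0.147). CHAC1, which breaks down glutathione, had 28.9, 26.7 and 47.8 CPM in siKMT2C and 38.5, 34.1 and 71.8 CPM in siNC. DDIT4, an inhibitor of mTORC1 signalling, had 541.2, 451.0 and 778.6 CPM in siKMT2C and 565.2, 623.4 and 1065 CPM in siNC. Both had negative log2 fold changes, -0.48 (adjusted p = 0.517) and -0.35 (adjusted p = 0.595), and in both the third library of each group was the highest of its group. Without siNC replicate 3 the log2 fold change was -0.08 for CHAC1 and -0.02 for DDIT4, and without siKMT2C replicate 3 it was -0.79 for CHAC1 and -0.60 for DDIT4. Without replicate 3 of both groups it was -0.39 for CHAC1 and -0.27 for DDIT4. SESN2, another mTORC1 inhibitor, had 87.8, 82.3 and 95.7 CPM in siKMT2C and 63.3, 62.0 and 90.9 CPM in siNC, at a log2 fold change of 0.30 (adjusted p = 0.451), and at 0.49 without siNC replicate 3 (adjusted p = 0.0695). PPP1R15A, the phosphatase subunit that reverses eIF2 phosphorylation, had 0.16, and STC2, a secreted glycoprotein, had -0.11, and both overlapped between groups. Without siNC replicate 3 STC2 was at 0.25.

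Levels were set side by side between genes on the deposited FPKM scale, which divides by a gene length that the sources used here do not give. That length was not the transcript length in every gene. In siNC, PHGDH had 177.2 CPM and 9.15 FPKM at a median transcript length of 1033.5 bases. CEBPB had 348 CPM and 179.5 FPKM there at 1956 bases. The order of genes by FPKM depends on the length used, and its part was not tested. The highest FPKM was that of DDIT4, 193.4 ± 56.4 in siKMT2C and 250.7 ± 92.2 in siNC (SD, n = 3 each). CEBPB had 162.8 ± 24.2 FPKM in siKMT2C and 179.5 ± 53.1 in siNC, and ATF4 had 125.4 ± 26.4 in siKMT2C and 120.9 ± 33.7 in siNC. PSAT1 had 157.9 ± 3.11 FPKM in siKMT2C and 116.7 ± 11.98 in siNC. In siNC these 4 had the highest FPKM, in the order DDIT4, CEBPB, ATF4 and PSAT1, and the ranges of mean ± SD of neighbours in that order overlapped. CTH stood near the bottom, with 4.76 ± 0.544 FPKM in siKMT2C and 2.64 ± 0.133 in siNC, and ATF3 was the lowest, with 0.594 ± 0.135 in siKMT2C and 0.583 ± 0.0914 in siNC. The gene that passed was among the weakly expressed members.

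The spread within groups followed a shared pattern. In 25 of the 33 members the third library was the extreme library of its group in both groups, and in the same direction. It was the highest in both groups in 14 members (42.4%, against 26.8% of all genes) and the lowest in both in 11 members (33.3%, against 25.7%). The 14 were ATF4, DDIT3, CEBPB, NUPR1, DDIT4, CHAC1, SESN2, PPP1R15A, STC2, PHGDH, SHMT2, PYCR1, AARS1 and MARS1. The 11 were ATF5, MTHFD1L, ASNS, CTH, GARS1, WARS1, SARS1, NARS1, EPRS1, IARS1 and XPOT. CHAC1 was 0.78 log2 CPM above the mean of the other libraries in siKMT2C and 0.98 above in siNC, and EPRS1 was at -0.23 in siKMT2C and -0.38 in siNC on the same scale. TRIB3 went the opposite ways in the groups, at -0.24 in siKMT2C and 1.26 in siNC.

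By median, the members that were highest in the third libraries were richer in G and C than those that were lowest. The rule did not hold for every gene. ATF5, at 62.49%, was among the lowest, and DDIT3 (50.65%, highest) was close to SARS1 (50.30%, lowest). Median transcript GC content was 58.26% in the 14 and 44.27% in the 11. Across the 33 members the deviation of the third library correlated with GC content at r = 0.66 in siKMT2C and 0.80 in siNC, and across 15022 genes at 0.37 in siKMT2C and 0.60 in siNC. The log2 fold change of siKMT2C over siNC also correlated with GC content, at r = -0.37 across the 33 members and -0.14 across 15022 genes. These are descriptions across genes that share the same libraries. The roles differ in GC content, from a median of 44.73% in tRNA charging and export to 60.68% in the stress effectors. The part of library composition in these levels was not tested.

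**Figure D3:**
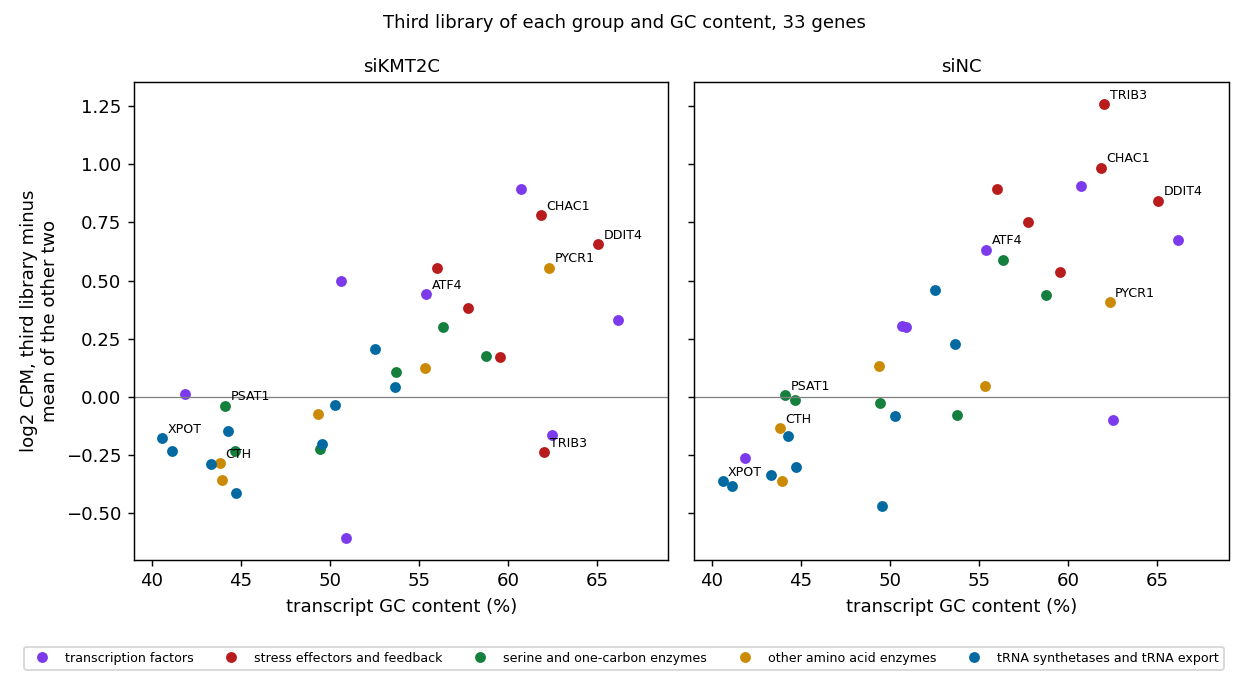
Each point is 1 of the 33 genes, coloured by role, with transcript GC content (%) on the x axis and the third library's log2 CPM minus the mean of the other libraries of its group on the y axis, siKMT2C left and siNC right. Points tend to climb with GC content in both panels, though ATF5 (GC content 62.49%) is below 0 in both. TRIB3 is below 0 in siKMT2C (-0.24) and the highest in siNC (1.26).

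With an offset for GC content and length fitted in each library, 8 members passed, and 9.42% of all genes were called (4.92% higher in siKMT2C). The 8, all higher in siKMT2C, were CTH, SESN2, PYCR1, ASNS, SARS1, PSAT1, SHMT2 and DDIT3. Corrected log2 fold changes were 0.82 for CTH (SE 0.12, adjusted p = 0.0101), 0.48 for SESN2 (SE 0.08, adjusted p = 0.0134) and 0.66 for PYCR1 (SE 0.12, adjusted p = 0.0194), by edgeR. ASNS had 0.52 (adjusted p = 0.0293), SARS1 0.36 (0.0293), PSAT1 0.44 (0.0398), SHMT2 0.32 (0.0406) and DDIT3 0.69 (0.0487). The log2 fold changes moved by over 0.1 in 7 members and by 0.20 at most, in CEBPB, and 24 members were positive with a median of 0.18. The shifts differed by role. Every stress effector moved up, by 0.04 (STC2) to 0.18 (SESN2, from 0.30 to 0.48). Every gene of tRNA charging and export moved down, with differences from -0.06 (IARS1) to -0.0005 (MARS1). Across the members the corrected values correlated with GC content at r = -0.18. TRIB3 had the largest corrected value, 1.09 (SE 0.32), and did not pass (adjusted p = 0.0892). ATF4 had 0.18 (SE 0.14, adjusted p = 0.486).

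**Figure D4:**
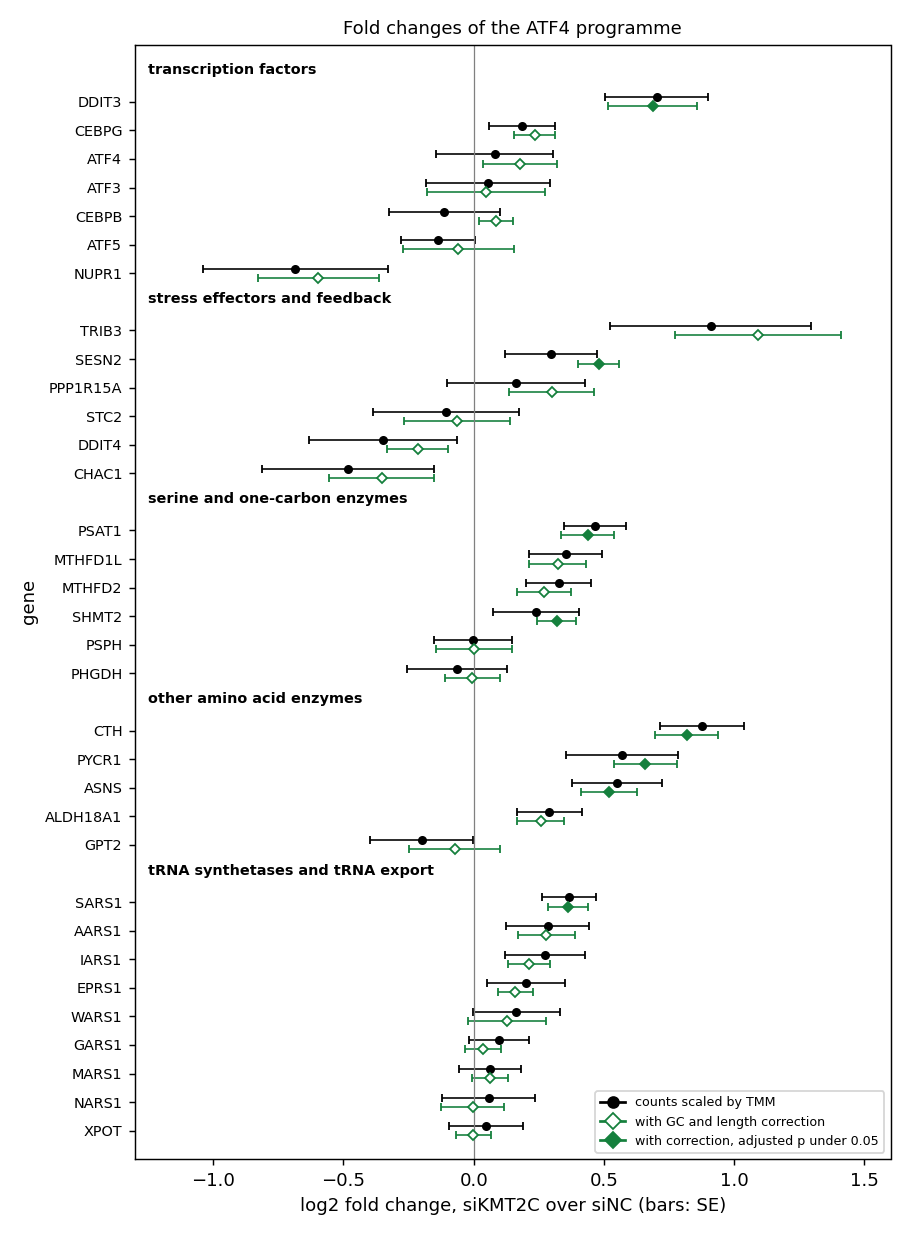
Log2 fold change of siKMT2C over siNC for the 33 genes by role, with bars of 1 SE: black circles are counts scaled by TMM, green diamonds add the correction for GC content and length, and filled diamonds have an adjusted p under 0.05. CTH passed in both, and the bars of CEBPB, SESN2 and DDIT4 are shorter after the correction.

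Genes of the same pathways outside the 33 were read from the same test. Of 16 other cytosolic tRNA synthetases and complex scaffolds, 14 had positive log2 fold changes with a median of 0.22, and 1 was called, KARS1, the lysine enzyme. KARS1 had 208.7, 231.0 and 220.0 CPM in siKMT2C and 142.5, 138.8 and 137.0 CPM in siNC, with no overlap, a log2 fold change of 0.66 (SE 0.11) and an adjusted p of 0.0347 by edgeR. The KARS1 call was lost without siKMT2C replicate 1, 2 or 3 (adjusted p 0.171, 0.161 and 0.107) or siNC replicate 1 or 2 (0.0920 and 0.175). Of 17 mitochondrial synthetases 0 passed, with 13 positive and a median of 0.12, and EARS2 and HARS2, among those with the smallest p, had log2 fold changes of 0.45 and 0.39.

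Of 18 genes for eIF2, its kinases and eIF2B, 0 passed, 11 were positive and the median was 0.13. The smallest p values there were those of EIF2B3 (log2 fold change 0.36), DELE1 (-0.34) and EIF2S2 (0.30). Of 15 other folate enzymes tested, of 16 listed, 0 passed, 12 were positive and the median was 0.23, with ALDH1L2 at 0.39, AMT at 0.93 and MTHFD1 at 0.26. The AMT value rested on 10 to 46 counts per library, with means of 2.19 CPM in siKMT2C and 1.14 CPM in siNC. Of 17 other non-essential amino acid enzymes tested, of 19 listed, 0 passed and 11 were positive. Among those, ASS1, which joins citrulline and aspartate, had 35.2 ± 5.09 CPM in siKMT2C and 69.1 ± 19.1 CPM in siNC, a log2 fold change of -0.97 that did not pass (adjusted p = 0.0729, edgeR), and BCAT1 and GLUL had 0.53 and -0.28.

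Other known ATF4 target genes were split between directions. Of 36 tested, of 38 listed, 16 were positive, the median was -0.15, 0 were called higher and 2 were called lower. In either direction 5 were called with DESeq2 (beside 5.74% of all genes), 9 with the GC and length offset (9.42%) and 1 with no filter (1.04%). With a single library left out 0 to 5 were called, beside 0.104% to 4.04% of all genes. VLDLR, a lipoprotein receptor, fell, with 3.60 ± 0.567 CPM in siKMT2C and 8.90 ± 1.195 CPM in siNC, a log2 fold change of -1.301 (SE 0.21, adjusted p = 0.0320, edgeR). SQSTM1, the autophagy adaptor p62, fell, with 467.6 ± 11.5 CPM in siKMT2C and 688.9 ± 20.1 CPM in siNC, a log2 fold change of -0.56 (SE 0.10, adjusted p = 0.0462, edgeR). SQSTM1 did not pass with no filter on low counts (adjusted p = 0.0745) or with the GC and length offset (0.0858). Without siKMT2C replicate 1, 2 or 3 or siNC replicate 1 or 2, VLDLR had an adjusted p of 0.1695, 0.132, 0.0764, 0.0925 or 0.140, and SQSTM1 0.230, 0.189, 0.145, 0.0977 or 0.195. Among 25 other bZIP genes tested, of 29 listed, 15 were positive and 1 was called, MAF, with 1.67 ± 0.612 CPM in siKMT2C and 12.3 ± 0.971 CPM in siNC (log2 fold change -2.88, SE 0.27, adjusted p = 0.00591, edgeR).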

How the data were processed

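The authors deposited whole-number read counts per gene and FPKM for 6 libraries, per the file headers. CASAVA 1.8 and TopHat2 2.0.6 are named as tools by the submitters' processing notes. The notes also name a mouse build, although the identifiers in the table are human Ensembl ones. The sources used here do not give the human build, annotation, counting program or strand setting, so coordinates are from GENCODE 29 (GRCh38). Within each gene the deposited FPKM values were the counts rescaled, checked in 12772 genes. They served to set levels side by side between genes, with a gene length that was not given.

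Counts were tested with edgeR 4.0.16 in R 4.3.3 (filterByExpr, TMM scaling, robust quasi-likelihood F test), with Benjamini-Hochberg adjustment over all 15063 genes tested and a call at an adjusted p under 0.05. CPM used TMM-scaled library sizes. SE was taken as |log2 fold change| over the root of F. Transcript GC content and length are medians over the GENCODE transcripts of a gene, and the offset was a loess fit per library (span 0.3). Alternatives were RLE scaling, library size alone, other filters, DESeq2 1.42.0, limma-voom (limma 3.58.1), the offset, a replicate block and leaving out libraries. The procedure was tested on simulated data with planted changes. It called 4.48% of 67 planted 1.5-fold changes, 37.3% of 67 2-fold changes and 86.4% of 66 4-fold changes, with 13 false calls. Those 13 are to be set beside the planted changes that were called, not beside all genes tested. The simulated counts did not carry the shared pattern of the third libraries. The members, the lists and the rule for naming genes (all 33 members and KMT2C, values per library for called genes, the 10 smallest p and ATF4, and called genes or up to 3 with the smallest p of each other list) were chosen with earlier results of these data known. Values per library of SESN2, SHMT2, NUPR1, ATF5, CHAC1 and DDIT4 were added after seeing the data. A gene that this rule names in the mitochondrial synthetase list is not reported here.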

Additional observations from a re-analysis of the deposited data

How the results depend on the processing

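Genes called numbered 226, against 864 with DESeq2, 1415 with the GC and length offset, 648 without replicate 3 of both groups (an alternative chosen after seeing the data) and 16 to 620 with a single library left out, the most without siNC replicate 3. Members called numbered 1, against 3 with DESeq2, 8 with the offset and 0 to 1 with a library left out. The log2 fold change of KMT2C then ran between -1.51 and -1.36. Under RLE scaling, library size alone, other filters and limma-voom, CTH was the only member called.

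The labels number the replicates but do not say that equal numbers were handled together, so the main test took no pairing. Same-numbered libraries deviated together at r = 0.0195, 0.107 and 0.389 for replicates 1, 2 and 3. The value of replicate 3 belongs to the shared pattern of the third libraries described above, which the main test did not take in. With the replicate block, 968 genes (6.43%) and 6 members were called (ASNS, CTH, DDIT3, PSAT1 and PYCR1 higher, NUPR1 lower). With the block and the offset, 1347 genes (8.97%) and 8 members were called. In the other lists, the ATF4 targets called numbered 2, against 5 with DESeq2, 9 with the offset, 8 with the block and 11 with both. The shares of all genes called were 1.5%, 5.74%, 9.42%, 6.43% and 8.97% in that order. Cytosolic synthetases called numbered 1, against 2, 5, 3 and 4 under those settings, bZIP genes 1, against 2, 6, 2 and 5, and non-essential amino acid enzymes 0, against 2, 2, 2 and 3. Keratinocyte markers called numbered 0, against 3, 3, 2 and 2, and mitochondrial synthetases, folate enzymes and eIF2 genes numbered 0 in all but the settings with the offset (1 to 2).

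The sign held in all 16 settings for 23 members. With no filter PSPH was 0.0047. With the offset, CEBPB was 0.0845, PSPH 0.0027, NARS1 -0.0044 and XPOT -0.0013. With the block and the offset, CEBPB was 0.0847, PHGDH 0.0012, PSPH 0.0019, NARS1 -0.0069 and XPOT -0.0012. Without replicate 3 of both groups, CEBPB was 0.0214, STC2 0.0377, PHGDH 0.0463 and XPOT -0.0161. With a library left out, ATF4 ran from -0.0792 to 0.314, ATF3 from -0.0603 to 0.235, CEBPB from -0.268 to 0.140, PPP1R15A from -0.0529 to 0.445 and STC2 from -0.316 to 0.248. Under the same setting PHGDH ran from -0.175 to 0.154, PSPH from -0.0777 to 0.104, GPT2 from -0.377 to 5.63e-05, NARS1 from -0.0719 to 0.206 and XPOT from -0.0731 to 0.157. The cause was not tested. With 3 libraries a group, a p that misses the threshold does not show that the groups were equal.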
